A study of Macaca mulatta with 30 samples.

Results

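The cytoplasmic ribosome is built from a small (40S) and a large (60S) subunit, each made of ribosomal RNA and a set of ribosomal proteins, and the genes of those proteins are described here across 5 tissues of the rhesus macaque. Genes were taken by name: every symbol of the RPL and RPS series, with RPSA, RPLP0, RPLP1 and RPLP2, that reached at least 1 TPM (a transcript abundance corrected for transcript length and scaled to a fixed total per library) in at least 6 of 30 libraries. The names matched 83 symbols of the 21292 in the deposited table, and 82 passed, 32 of the 40S and 50 of the 60S subunit, among 13550 genes that passed the same filter. The gene outside was RPL3L, with 5 libraries at or above 1 TPM. The members nearest the limit were RPS4Y2 with 10 such libraries, RPL39L with 12, RPS4Y1 with 21 and RPL37 with 24. RPS6, RPS3A and RPL36A were not analysed here. The naming rule also leaves out genes such as FAU, RACK1 and RPL36AL, which encode cytoplasmic ribosomal proteins or a protein bound to the 40S subunit.

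RNA came from flash-frozen parotid, submandibular and sublingual gland, pancreas and liver of 6 rhesus macaques (Macaca mulatta), 4 female (animals 1 to 4) and 2 male (animals 5 and 6), with 1 library per tissue and animal. The salivary glands are labelled as left, except the parotid of animal 3, whose label carries an R in place of an L. The labels name no treatment or genotype and give no ages. The study asked how expression differs between salivary glands, pancreas and liver within an animal. All 6 libraries of a tissue are from separate animals, so the spread given below is between animals.

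Ribosomal protein genes are among the most highly expressed genes of most cells, and their products are needed in matched amounts, since each ribosome holds a single copy of nearly every one. Their mRNAs carry a terminal oligopyrimidine (TOP) sequence at the 5′ end, through which LARP1 and the mTOR pathway control their translation and stability. Acinar cells of the pancreas and of salivary glands, and hepatocytes, are secretory cells rich in rough endoplasmic reticulum, whose surface carries ribosomes. A few members have a paralogue, a second gene for a similar protein, whose expression is known to vary between tissues, or between the sexes in the case of RPS4.

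The libraries differed in ways that bear on these genes. Because TPM values are shares of a fixed total, abundant transcripts of any kind lower all other values. The top 10 genes are the 10 most abundant of a library, whether secretory, mitochondrially encoded or other. They averaged 23.7% of a liver, 40.2% of a pancreas, 37.0% of a sublingual, 65.3% of a submandibular and 72.2% of a parotid library. Transcripts encoded by mitochondrial DNA ranged from 2.64 to 24.7% of a library. Markers matched the labelled tissue except in a few libraries. In the pancreas of animal 4 the summed TPM of 13 pancreas markers was 4540, against 204647 to 413260 in the other animals, and in the submandibular gland of animal 4 the sum of 8 salivary markers was 2368, against 235748 to 355407. Fat markers summed to 17698 and 7515 TPM and blood markers to 13439 and 10376 TPM in those libraries. In the sublingual gland of animal 4 the salivary sum was 5284, against 36997 to 354517. The parotid of animal 6 carried 77299 TPM of 8 skeletal muscle markers. The sublingual glands of animals 5 and 1 carried 24062 and 7835 TPM of them, and the parotid of animal 1 5477 TPM. Results were recomputed without the pancreas and submandibular libraries of animal 4 and the parotid library of animal 6, called here the 3 libraries that stand apart, and separately without each animal.

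The summed TPM of the 82 members gave their share of each library. In parotid it was 2.04, 2.57, 2.63, 3.95, 1.90 and 4.14% in animals 1 to 6 (2.87% ± 0.954, SD, n = 6). In submandibular gland it was 2.55, 2.04, 2.76, 12.7, 2.78 and 3.41% (4.38% ± 4.11). In sublingual gland it was 10.6, 5.42, 6.69, 10.8, 6.00 and 9.47% (8.16% ± 2.41). Every sublingual value lay above every parotid value, while the submandibular values lay inside the parotid range except in animal 4, whose value lay above every sublingual value. In pancreas the share was 4.08, 4.15, 6.19, 12.8, 3.95 and 3.98% (5.86% ± 3.52), and in liver 4.36, 5.31, 5.69, 4.52, 4.98 and 4.49% (4.89% ± 0.530). Liver had the narrowest spread and lay inside the pancreas range. Without the 3 libraries that stand apart the share was 2.62% ± 0.811 in parotid, 2.71% ± 0.495 in submandibular gland and 4.47% ± 0.965 in pancreas (n = 5 each). As the members' sum gets no test, these shares are descriptions. In bulk tissue, fewer cells of a type and less RNA per cell cannot be told apart.

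**Figure D1:**
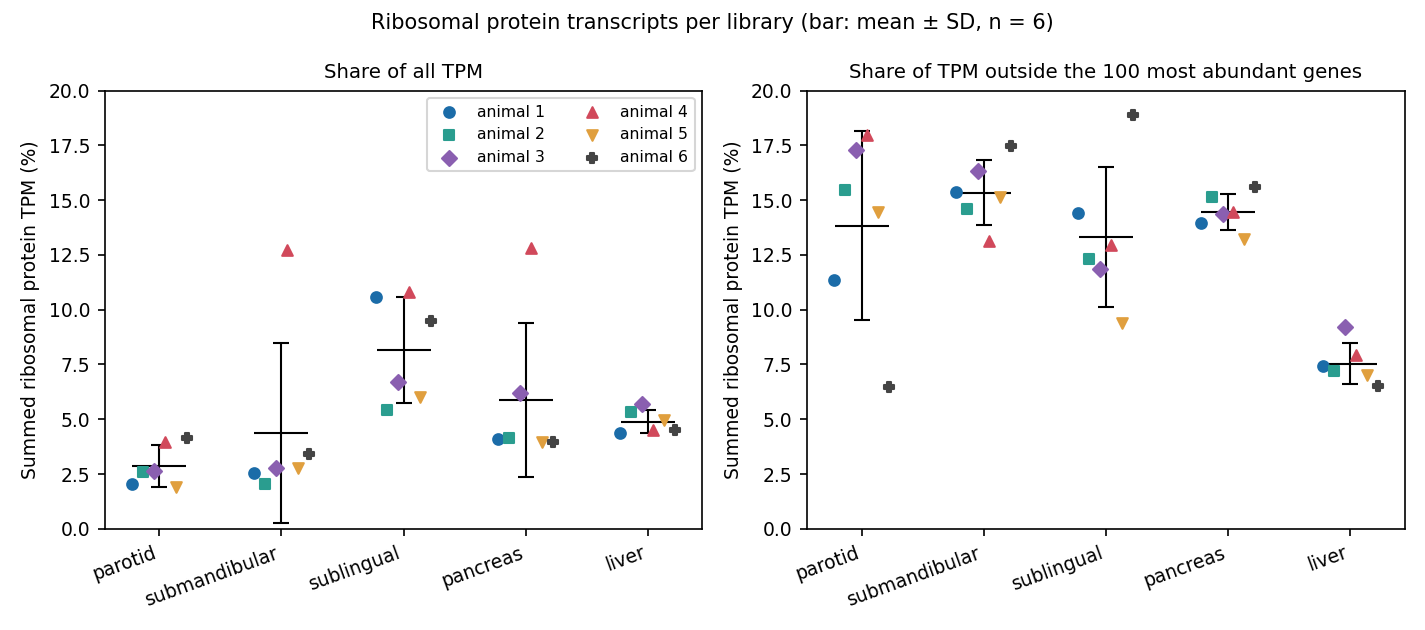
Summed TPM of the 82 ribosomal protein genes as a percent of each library (vertical axis) in 5 tissues (horizontal axis), for all genes and for TPM outside the 100 most abundant genes; points are the 6 animals and bars are the mean with SD. Sublingual gland has the highest mean on the first scale (8.16%), and liver has the lowest mean on the second (7.54%).

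The order of the tissues depended on the total used. Counted over TPM outside the 100 genes with the highest mean in the table (5 of which were members, RPL41, RPL13A, RPLP1, RPS20 and RPS28), the share was 7.54% ± 0.934 in liver, 14.5% ± 0.831 in pancreas, 13.3% ± 3.20 in sublingual, 15.3% ± 1.48 in submandibular and 13.8% ± 4.30 in parotid gland (SD, n = 6). On that scale liver lay at 6.50 to 9.20% and below every library of the other tissues except the parotid of animal 6, at 6.47%. The glands and pancreas overlapped each other. Outside mitochondrially encoded genes, the mean shares were 5.96, 6.44, 9.11, 4.69 and 3.07% in the same tissue order.

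RPL41 had the highest mean TPM of the family in each of the 5 tissues. The gene, which encodes the shortest ribosomal protein, averaged 3893 TPM over the 30 libraries and ranged from 1261 to 11950 TPM. It was followed by RPS20, a protein of the 40S head, at 2072 TPM, RPL13A at 1889 TPM, RPS28 at 1565 TPM and RPLP1, an acidic protein of the ribosomal stalk, at 1274 TPM. Together these 5 genes held 17.0 to 26.4% of the family's TPM in a library. The lowest members were RPL39L at 1.43 TPM, listed at 0 in 11 libraries, RPL10L at 3.35 TPM, RPS4Y2 at 8.63 TPM, RPL7L1 at 13.8 TPM and RPL26L1 at 20.2 TPM. All 5 are paralogues of another ribosomal protein gene. Across genes, the rank order of tissue means was most alike between parotid and submandibular gland (Spearman's rho 0.98 over the 82 members) and least alike between parotid and liver (0.84). These are descriptions, since genes are not independent replicates and all libraries share 1 quantification. Reads from near-identical copies, including processed pseudogenes, which are numerous for this family, may have been split among genes by a procedure the sources leave out, and the level of a single member is therefore uncertain.

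The 40S genes held 42.6% ± 2.43 of the family's TPM in liver, 39.7% ± 1.38 in pancreas, 41.3% ± 1.25 in sublingual, 38.9% ± 0.721 in submandibular and 38.8% ± 0.789 in parotid gland (SD, n = 6). Liver ranged from 39.7 to 45.0% and overlapped every other tissue, parotid and submandibular gland only through its animal 6. The stalk gene RPLP0 had its lowest, median and highest values at 211, 364 and 447 TPM in liver, 297, 446 and 614 TPM in pancreas, 369, 649 and 873 TPM in sublingual, 196, 287 and 718 TPM in submandibular and 162, 241 and 397 TPM in parotid gland. RPL5 and RPL11, which with 5S ribosomal RNA form a particle that can bind the p53 regulator MDM2, had medians of 199 and 240 TPM in parotid and 443 and 619 TPM in sublingual gland. RPS27A, made as a fusion with ubiquitin, had medians of 378 TPM in parotid and 1086 TPM in sublingual gland. RPSA, also known as a precursor of a laminin receptor, had medians of 177 TPM in parotid and 370 TPM in sublingual gland. For each of RPL5, RPS27A and RPSA the parotid and sublingual ranges did not overlap, whereas those of RPL11 (188 to 448 and 421 to 1341 TPM) did.

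Differences between tissues were tested with limma on log2(TPM + 1), in a fit of all 30 libraries with animal as a block. P-values were adjusted by the Benjamini-Hochberg method over the 13550 genes, and a gene is called where its adjusted p was below 0.05. Among the members, 73 of 82 differed among the 5 tissues, where 66.8% of all genes tested did. The 9 that did not pass included RPL14, RPL21, RPL37, RPL39L, RPL7A, RPL7L1, RPS4Y1 and RPS4Y2. Each pairwise result is given as deposited and after trimmed-mean scaling, which rescales each library so that the middle of its gene ratios lies at 0. This scaling moved the median of all genes by up to 0.87 (from −0.84 to 0.03 in parotid minus liver, log2), and members are read against it.

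As deposited, sublingual gland stood above the other salivary glands. Its highest members' shares (10.6 and 10.8%, animals 1 and 4) came with its lowest salivary marker sums, 36997 and 5284 TPM. The top 10 genes held 18.7 and 25.3% of those libraries, against 32.7 to 52.5% in the other sublingual ones. The sublingual gland of animal 6 went the other way. It had the next highest share (9.47%) with the highest salivary marker sum (354517 TPM) and the highest top 10 share (52.5%). A link between these quantities was not tested. No sublingual library is among the 3 that stand apart, so leaving those out keeps every sublingual library. Leaving out each animal in turn gave 60 to 78 calls in parotid minus sublingual. In parotid minus sublingual 77 members were lower and 0 higher, where 40.6% of all genes were lower, and the members' median difference was −1.43 against −0.70 over all genes (log2). After scaling, 14 were lower, where 9.56% of all genes were, and the median was −0.40. In submandibular minus sublingual 62 were lower (27.2% of all genes), with a median of −1.08, and 3 were lower after scaling (8.53% of all genes), with a median of −0.27. The 62 became 22, 31, 33 and 41 without animal 1, 2, 3 or 5. RPS29, a zinc-binding protein of the 40S head, had lowest, median and highest values of 242, 299 and 627 TPM in parotid and 1057, 1656 and 2512 TPM in sublingual gland. These ranges did not overlap, and parotid was lower by a log2 difference of −2.20 (SE 0.35, adjusted p = 5.72e-05). RPL39, which lines the exit tunnel of the ribosome, was at 129, 221 and 505 TPM in parotid and 487, 873 and 2943 TPM in sublingual gland, a difference of −2.16 (SE 0.37, adjusted p = 0.000151), and of −1.79 in submandibular minus sublingual (SE 0.37, adjusted p = 0.00139). RPS18, another protein of the 40S head, differed by −1.99 in parotid minus sublingual (SE 0.32, adjusted p = 6.58e-05), and that call held after scaling, as did those of RPS29 and RPL39. In submandibular minus sublingual RPS27 (−1.70) and RPS18 (−1.65) were called as deposited, and after scaling gave −0.87 and −0.81 and did not pass. Between parotid and submandibular gland 0 of 82 members were called by limma, 0 also at an unadjusted p below 0.05, where 0.347% of all genes were called. After scaling the count was again 0, with 0.708% of all genes called. In sublingual libraries 12 markers of lymphocytes and plasma cells summed to 268 to 9187 TPM, against 21.1 to 58.9 in parotid and 52.2 to 893 in submandibular gland. By animal the sublingual sums were 268, 1305, 9187, 604, 8329 and 939 TPM in animals 1 to 6. The members' shares of those libraries were 10.6, 5.42, 6.69, 10.8, 6.00 and 9.47% in the same order. The part of these cells in the differences was not tested.

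**Figure D2:**
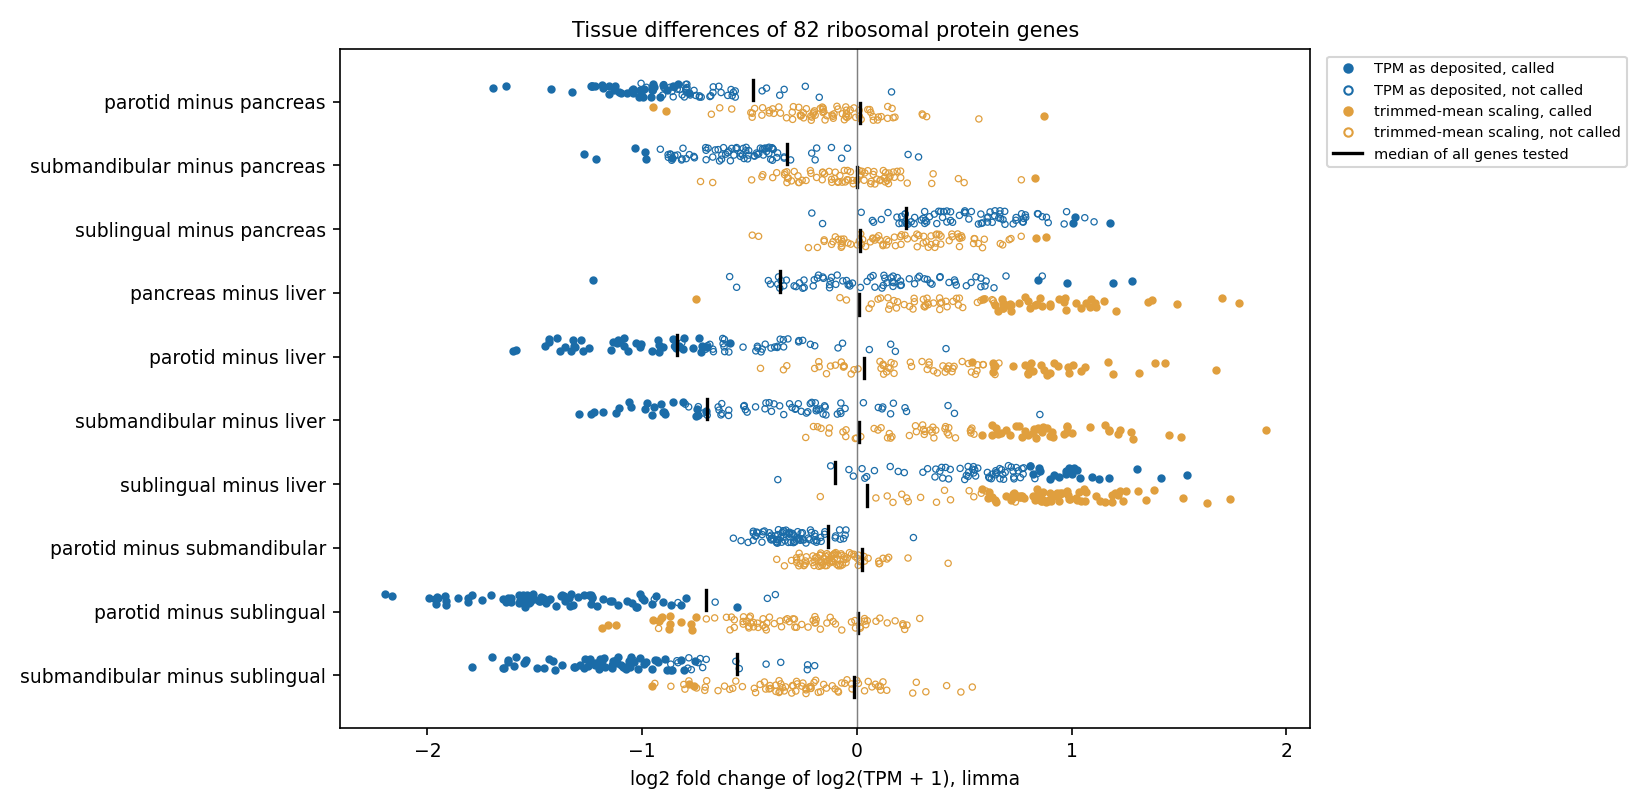
Log2 difference of each of the 82 members (points) for the 10 tissue pairs, from TPM as deposited and after trimmed-mean scaling (filled where called, open where not; the bars mark the median of all genes tested). As deposited the members' medians run from −1.43 (parotid minus sublingual) to 0.65 (sublingual minus liver), and after scaling from −0.40 to 0.86.

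Against pancreas, parotid values were lower as deposited. In parotid minus pancreas 36 members were lower, where 13.6% of all genes were, and the median difference was −0.87 (−0.48 over all genes). After scaling, 1 was higher and 2 were lower, with 17.1% of all genes called in either direction. In submandibular minus pancreas 6 of 82 were lower as deposited, close to the share of all genes (7.46%), while after scaling 1 was higher (8.13% of all genes) and 0 lower. In sublingual minus pancreas 3 members were higher, RPS16, RPS20 and RPS24, where 10.4% of all genes were, and after scaling 2 were (11.3% of all genes). These counts depended on single animals. In parotid minus pancreas, leaving out animal 1, 2, 3 or 5 gave 14, 15, 4 and 9 calls, and leaving out animal 4 or 6 gave 43 and 46. In submandibular minus pancreas, 37 were called without animal 4 and 0 to 3 without any other animal. In sublingual minus pancreas, 45 were called without animal 4 and 0 to 2 without any other. Without the 3 libraries that stand apart the counts were 49, 44 and 49 for parotid, submandibular and sublingual gland. The share of all genes that differed among the 5 tissues moved as well. It was 66.8% with all libraries and 90.1% without those 3. Without animal 4 it was 85.8%, without animal 6 70.1%, and without animal 1, 2, 3 or 5 48.2 to 50.7%. These changes in count are therefore not read as particular to the members.

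RPL26 and RPS28 led these differences. RPL26, a 60S protein near the exit tunnel, had lowest, median and highest values of 979, 1130 and 1917 TPM in pancreas, 306, 430 and 1813 TPM in submandibular and 254, 373 and 566 TPM in parotid gland. Parotid and pancreas did not overlap, and the submandibular range reached into that of pancreas through animal 4. The difference was −1.70 in parotid (SE 0.28, adjusted p = 0.00011) and −1.21 in submandibular gland minus pancreas (SE 0.28, adjusted p = 0.00496). RPS28, a 40S protein at the mRNA exit channel, was at 380, 501 and 1130 TPM in parotid and 1178, 1411 and 5066 TPM in pancreas, again without overlap, a difference of −1.63 (SE 0.36, adjusted p = 0.00246). Both parotid calls held after scaling (−0.95 and −0.89). The submandibular call of RPL26 did not (−0.67), and was also not passed without animal 2 (−1.08) or animal 3 (−1.14).

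In parotid and submandibular gland minus liver the sign of the calls turned with the scaling, which moved the values of all genes. As deposited, 43 members were lower in parotid (53.4% of all genes) and 22 in submandibular gland (45.1% of all genes), whereas after scaling 29 were higher in parotid (21.2% of all genes) and 40 in submandibular gland (22.2% of all genes), with 0 lower in either. The deposited counts are near the share of all genes in parotid and below it in submandibular gland. They are therefore not read as a result about the members. In parotid the members' deposited median was −0.73, above the median of all genes given earlier. In sublingual minus liver 20 were higher as deposited (12.8% of all genes) and 66 after scaling (21.9% of all genes). In pancreas minus liver 4 were higher and 1 lower as deposited, where 30.4% of all genes were called in either direction, and 39 were higher and 1 lower after scaling (36.7%). As deposited and without the 3 libraries that stand apart, 61 were lower in parotid, 54 lower in submandibular and 53 higher in sublingual gland, and 5 were higher and 9 lower in pancreas. In that fit 90.1% of all genes differed among the 5 tissues, against 66.8% with all libraries. Leaving out animal 1, 3 or 5 took the parotid count to 28, 22 and 22. The submandibular count was 8, 7, 6 and 8 without animal 1, 2, 3 or 5, and 59 without animal 4. The sublingual count was 3, 11 and 10 without animal 1, 3 or 6, and the pancreas count was 1, 3, 2, 8, 3 and 2 without animals 1 to 6. After scaling, the members' median differences from liver were 0.61 in pancreas, 0.86 in sublingual, 0.54 in submandibular and 0.45 in parotid gland, while those of all genes lay between 0.01 and 0.05. These comparisons share the 6 liver libraries.

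As deposited, RPL22L1 was higher in sublingual gland (1.54, SE 0.27, adjusted p = 6.29e-05) and pancreas (1.28, SE 0.27, adjusted p = 0.000623) than in liver. RPS26, a 40S protein at the mRNA exit channel, had lowest, median and highest values of 261, 331 and 882 TPM in parotid and 1026, 1209 and 1431 TPM in liver, which did not overlap. Its difference was −1.60 in parotid minus liver (SE 0.30, adjusted p = 9.59e-05), and −0.34 with adjusted p = 0.30 after scaling. RPL26L1 was lower in pancreas than in liver (−1.23, SE 0.38, adjusted p = 0.0161). That call did not pass without animal 1 (−1.23), 2 (−1.05), 5 (−1.10) or 6 (−1.03).

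To ask which members departed from the course of the family, the median log2(TPM + 1) of the 82 members was subtracted in each library. On this family-relative scale a shift common to all members drops out for members well above 1 TPM, whatever the total. It does not for members near the added 1, such as RPL10L (1.15 to 6.46 TPM), RPL39L, and RPS4Y1 and RPS4Y2 in females. Here 42 of 82 members differed among the tissues, where 78.0% of all genes did. Subtracting the members' own median centres the members and moves all other genes, so on this scale counts of members are not read against shares of all genes. The range of a member's 5 tissue means had a median of 0.50 (log2), and 41 members stayed under 0.5. The steadiest were RPLP2, a stalk protein (range 0.11), RPL11 (0.12) and RPL31 (0.12), with adjusted p-values of the F test between 0.935 and 0.95. The widest were RPL26L1 (1.40), RPL7 (1.28), RPL22L1 (1.11), RPL7L1 (1.06) and RPS4Y2 (1.04). RPS4Y2 was at 0 to 0.953 TPM in females, where log2(TPM + 1) is near its floor and the relative value follows the family median, so its range is not read as a departure from the family. On TPM it did not differ among tissues (adjusted p of the F test = 0.594). The 42 called include RPS4Y1, RPS4Y2 and RPL10L, whose low values limit them in the same way. Of the 42 called, 17 had their highest and 12 their lowest mean in liver.

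**Figure D3:**
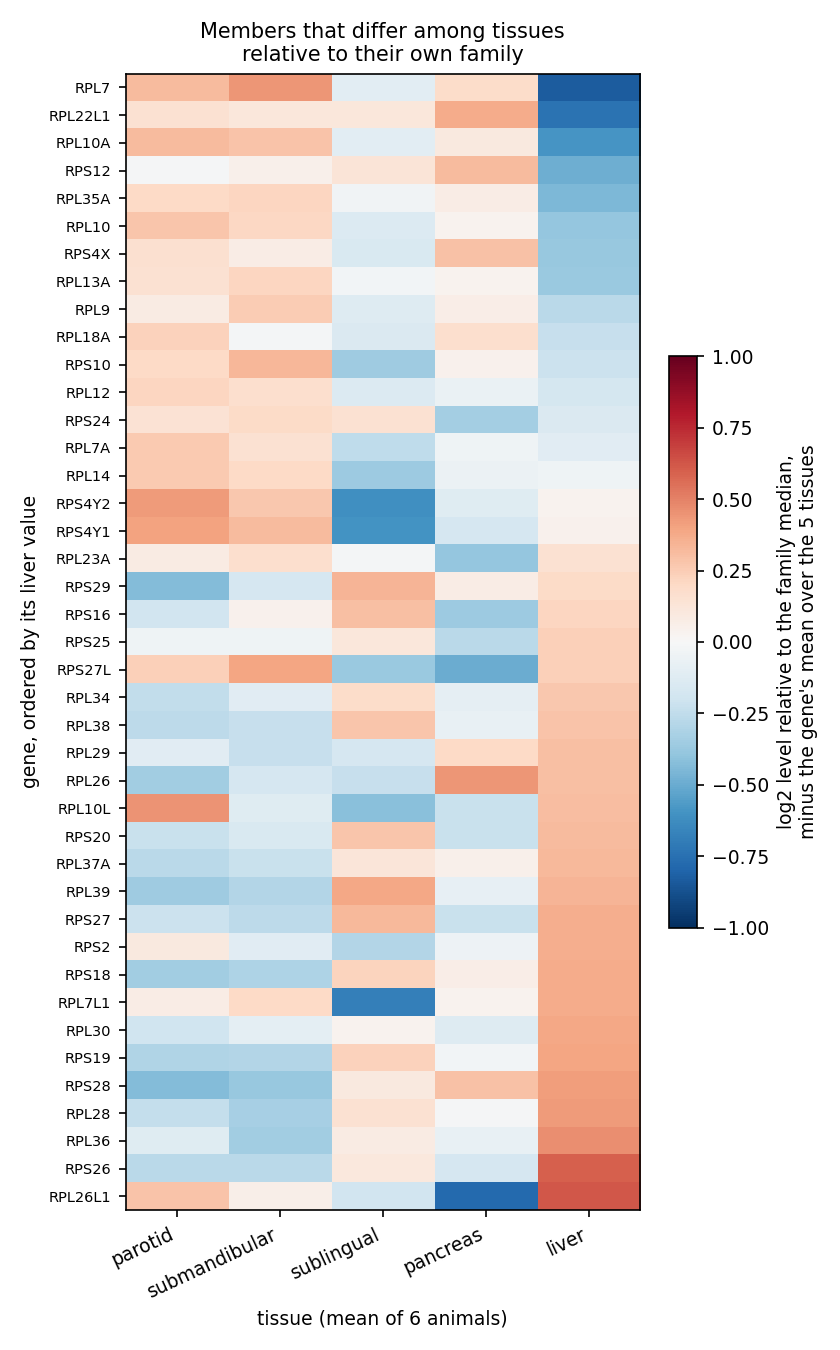
Tissue means of members that differed among tissues on the family-relative scale, all but 1 of the 42 (colour, log2; rows are members ordered by liver, columns the 5 tissues), each centred on its mean over tissues. RPL7 and RPL22L1 stand low in liver, RPS26 and RPL26L1 stand high there, and RPL26 stands high in pancreas and liver. RPS4Y1 and RPS4Y2 were at most 3.31 TPM in females.

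RPL7, a 60S protein, was lowest in liver. In TPM its lowest, median and highest values were 133, 291 and 468 in liver, 263, 584 and 1303 in pancreas, 370, 859 and 939 in sublingual, 269, 390 and 1528 in submandibular and 206, 372 and 477 in parotid gland. These ranges overlapped. On the family-relative scale liver lay at −1.71 to −0.25 and did not overlap parotid (−0.04 to 0.44) or submandibular gland (0.14 to 0.49). The differences from liver were 1.02 in pancreas, 0.73 in sublingual, 1.28 in submandibular and 1.15 in parotid gland (SE 0.24 each; adjusted p = 0.00152, 0.0126, 0.000158 and 0.000548). The sublingual call did not pass without animal 1 (0.62) or animal 4 (0.59). The liver values of RPL7 themselves fell apart by animal, at 133, 468, 203, 144, 379 and 411 TPM in animals 1 to 6. RPL10A, chosen after its values were seen, was likewise lowest in animals 1, 3 and 4, with 126, 431, 200, 119, 344 and 352 TPM, and its family-relative difference from liver was 0.91 in parotid (SE 0.22, adjusted p = 0.00169).

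RPS12, a protein of the beak of the 40S head, was also low in liver relative to the family, with differences of 0.48 in parotid, 0.54 in submandibular, 0.62 in sublingual gland and 0.80 in pancreas (SE 0.18 each; adjusted p = 0.0396, 0.0189, 0.00538 and 0.000856). RPL35A, named after its values were seen, lay at −0.74 to −0.59 in liver, with differences of 0.65, 0.66, 0.41 and 0.52 in the same order (SE 0.15 each; adjusted p = 0.00112, 0.000856, 0.0197 and 0.00579). RPS26 stood highest in liver, with differences of −0.87, −0.87, −0.49 and −0.77 (SE 0.17 each; adjusted p = 0.000198, 0.00018, 0.0137 and 0.000618). RPS28 was lower relative to the family in parotid (−0.85) and submandibular gland (−0.80) than in liver (SE 0.18 each; adjusted p = 0.000372 and 0.000686), and for sublingual gland the difference was −0.32 with adjusted p = 0.108. RPL26 was lower in each salivary gland than in pancreas, by −0.67 in sublingual, −0.61 in submandibular and −0.79 in parotid gland (SE 0.16 each; adjusted p = 0.00478, 0.0143 and 0.00137). The submandibular call of RPL26 did not pass without animal 1, 2, 3 or 5 (−0.65 to −0.57).

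The number of members called on the family-relative scale was 30 in parotid minus liver (37.4% of all genes called), 26 in submandibular minus liver (41.7%), 24 in pancreas minus liver (45.9%) and 14 in sublingual minus liver (63.0%). For parotid minus sublingual it was 24 (52.4%) and for submandibular minus sublingual 15 (37.7%). RPS4Y1 and RPS4Y2, near the floor in females, are in both counts, and RPL10L, at low TPM, is in the first. RPS4Y1 and RPL10L are also in the count of sublingual minus liver. Against pancreas 4 were called in sublingual (17.3%), 6 in submandibular (10.3%) and 6 in parotid gland (21.0%). Between parotid and submandibular gland it was 0, also at an unadjusted p below 0.05, with 0.0738% of all genes called. These counts also depended on single animals. Without animal 1 and without animal 3 they were 17 and 15 in parotid, 14 and 15 in submandibular and 11 and 12 in pancreas minus liver. In sublingual minus liver 8 were called without animal 1 and 9 without animal 4. In parotid minus sublingual 7, 13 and 13 were called without animal 1, 2 or 3, and in submandibular minus sublingual 1, 4, 5 and 7 without animal 1, 2, 3 or 6. Against pancreas, parotid gave 3, 2, 3 and 3 and submandibular gland 0 each time without animal 1, 2, 3 or 5, submandibular gland 3 without animal 6, and sublingual gland 2 without animal 1, 2, 3 or 6 and 6 without animal 4 or 5.

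Paralogues were set against their core gene within each library, a ratio that does not depend on the total. RPL22L1 encodes a paralogue of RPL22, a 60S protein known to repress its paralogue's RNA. It was at 5.96 to 12.0% of RPL22 in liver (mean 8.52% ± 2.41), 9.83 to 36.6% in pancreas (24.6% ± 10.7), 12.2 to 18.6% in sublingual (16.0% ± 2.63), 9.11 to 30.7% in submandibular (17.7% ± 8.72) and 7.57 to 30.8% in parotid gland (19.5% ± 9.36; SD, n = 6). Liver lay below every sublingual value and overlapped the other tissues at their low end, where the lowest value was that of animal 4 in submandibular gland and pancreas and that of animal 6 in parotid. The submandibular gland of animal 3, at 9.76%, also lay inside the liver range. RPL22L1 itself, relative to the family, was higher than in liver by 0.89 in parotid, 0.85 in submandibular, 0.85 in sublingual gland and 1.11 in pancreas (SE 0.23 each; adjusted p = 0.00358, 0.00467, 0.00302 and 0.00039).

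RPL26L1 was at 1.08% ± 0.690 of RPL26 in pancreas, with its highest value, 2.35%, in animal 4, and at 3.02% ± 0.916 in liver, 2.49% ± 0.756 in sublingual, 2.74% ± 0.748 in submandibular gland and 3.85% ± 2.04 in parotid, where animal 6 reached 7.66%. Relative to the family it was lower in pancreas than in liver by −1.40 (SE 0.27, adjusted p = 0.00016), and higher in parotid than in pancreas by 1.07 (SE 0.27, adjusted p = 0.0077). The parotid call did not pass without animal 2 (0.93). RPL7L1, related to RPL7, was at 6.72% ± 1.81 of RPL7 in liver (4.62 to 9.22%) and at 0.681 to 3.84% in the other tissues, which did not overlap liver. RPS27L, a p53-responsive paralogue of RPS27, was at 106% ± 20.4 of RPS27 in liver, 97.6% ± 25.0 in pancreas, 83.9% ± 49.2 in sublingual, 203% ± 91.0 in submandibular and 164% ± 54.0 in parotid gland. The testis-associated paralogues were scarce. RPL10L was at 0.140 to 1.31% of RPL10, and RPL39L was at most 0.991% of RPL39, in the pancreas of animal 4.

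**Figure D4:**
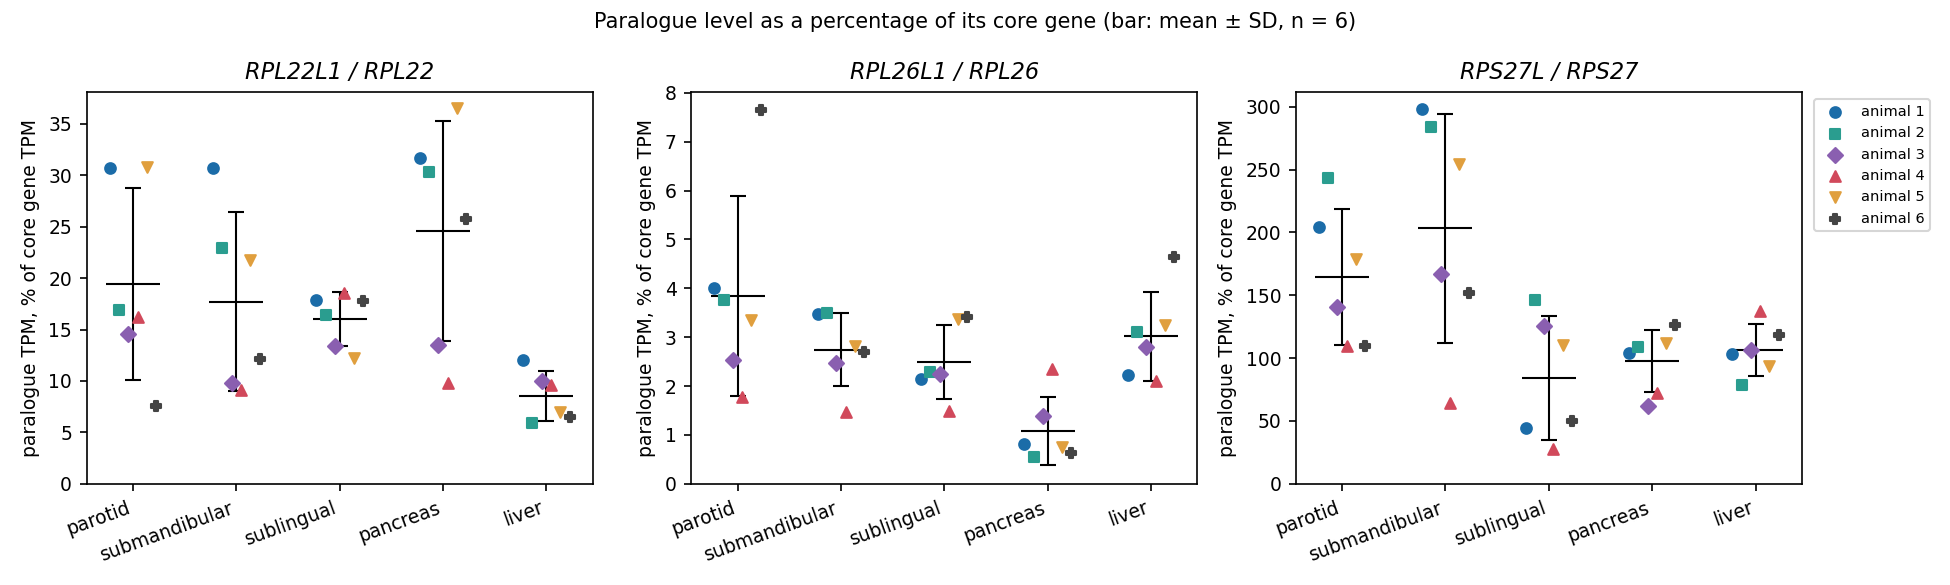
TPM of a paralogue as a percent of its core gene (vertical axis, linear from 0) in 5 tissues (horizontal axis), for RPL22L1, RPL26L1 and RPS27L; points are the 6 animals and bars the mean with SD. RPL22L1 has its lowest mean in liver (8.52% of RPL22), RPL26L1 in pancreas (1.08% of RPL26) and RPS27L in sublingual gland (83.9% of RPS27).

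RPL3L, the paralogue of RPL3 known from striated muscle and the gene just outside the filter, was listed at 1 TPM or above in 5 libraries. It was at 149.7 TPM in the parotid of animal 6, where it equalled 101% of RPL3, at 52.7 TPM in the sublingual gland of animal 5, 30.4 TPM in the sublingual gland of animal 1 and 17.9 TPM in the parotid of animal 1. The same 4 libraries held the highest sums of 8 skeletal muscle markers, 77299, 24062, 7835 and 5477 TPM in that order, against at most 816 TPM in the other 26. RPL3 in the parotid of animal 6 was at 148 TPM, the lowest of the parotid libraries.

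Some members differed between animals in every tissue. This was seen first for RPL37 and then tested for every gene with limma's F test over the 6 animals in the same fit. It called 6 members where 0.760% of all genes tested were called, among them RPS4Y1 (adjusted p = 1.13e-14), RPL37 (4.12e-13), RPS4Y2 (4.98e-13), RPL14 (1.95e-10) and RPL17 (8.21e-06). By the same adjusted threshold 6 members were called after trimmed-mean scaling (2.10% of all genes) and 7 relative to the family median (3.11%). Without the 3 libraries that stand apart 5 were called (0.827%). The named 5 were also called without the 3 libraries that stand apart. RPL37, RPL14 and RPL17 were chosen by this test and fall outside the rule for named genes.

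RPL37, a zinc-binding 60S protein, was at 139.6 to 697 TPM in the 10 libraries of animals 4 and 6 and at 0 to 13.2 TPM in the 20 libraries of animals 1, 2, 3 and 5. The pattern held in each tissue. In liver, for example, the values were 3.04, 1.23, 5.13, 260.5, 13.2 and 289.4 TPM in animals 1 to 6, and in pancreas 1.74, 0.00, 2.92, 675.7, 12.4 and 188.3 TPM. RPL14, a 60S protein, was lowest in animal 1, at 4.96 to 12.2 TPM in its 5 libraries, against 72.8 to 423 TPM in the 25 libraries of the others. The others also differed. Relative to the family median, animals 4 and 5 lay at −2.32 to −1.38 and animals 2, 3 and 6 at −1.38 to −0.28 (log2), grouped after their values were seen. These ranges overlapped slightly, at −1.3803 and −1.3809. RPL17, which reaches the exit tunnel, was lowest in animal 5 in every tissue, at 68.9 to 162 TPM. Its liver values were 132.7 TPM for animal 5 and 210.8 TPM for animal 1, with the remaining 4 at 421.8 to 578.9 TPM. How reads were divided among near-identical copies in these animals was not tested.

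**Figure D5:**
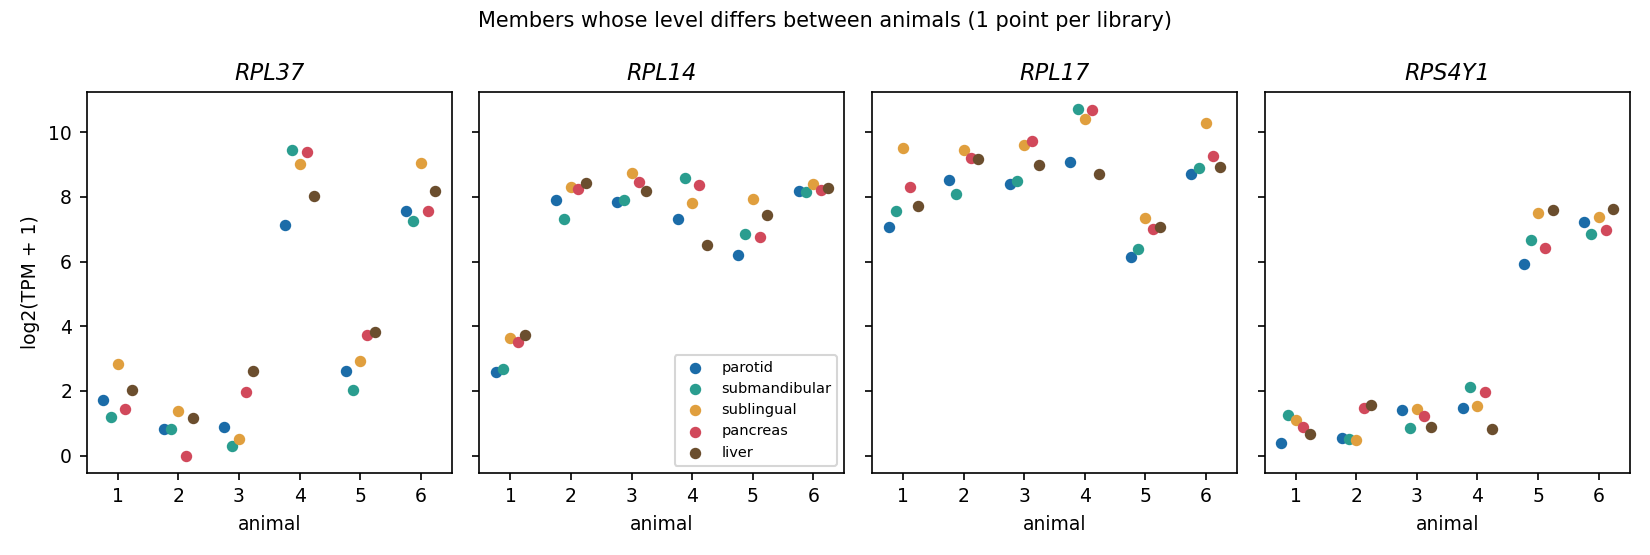
Level of RPL37, RPL14, RPL17 and RPS4Y1 as log2(TPM + 1) (vertical axis) by animal (horizontal axis); points are the 5 tissues of each animal. RPL37 is at 139.6 to 697 TPM in animals 4 and 6 and at most 13.2 TPM in the others, RPL14 is at most 12.2 TPM in animal 1, and RPS4Y1 is at least 59.2 TPM in the males (animals 5 and 6).

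RPS4 is encoded on both sex chromosomes, by RPS4X on the X and by RPS4Y1 and RPS4Y2 on the Y. RPS4Y1 lay between 0.313 and 3.31 TPM in every female library (20) and between 59.2 and 197 TPM in every male library (10), and RPS4Y2 at 0 to 0.953 and 11.3 to 40.7 TPM. Neither overlapped between the sexes, which matched the labels in all 30 libraries. RPS4X had lowest, median and highest values of 232, 503 and 1451 TPM in females and 176, 325 and 531 TPM in males. Summed over the 3 genes the medians were 505 TPM in females and 523 TPM in males, with ranges of 233 to 1455 and 246.3 to 746 TPM. The Y-linked genes held 23.0 to 43.6% of that sum in males. RPS4Y1 was at 59.9 and 64.2% of RPS4X in the male livers and at 25.4 to 44.9% in the males' other tissues. With 2 males no difference between tissues within a sex was tested.

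Other genes of the ribosome pathway were taken as lists chosen with results of these data known. Over all genes, as deposited, 53.4% were lower in parotid, 45.1% in submandibular, 18.7% in sublingual gland and 23.6% in pancreas than in liver. After scaling 21.2, 22.2, 21.9 and 16.6% were higher and 22.6, 24.6, 22.5 and 20.1% lower. Of 15 translation factors with TOP mRNAs, such as EEF1A1 and EEF2, 11 were lower in parotid minus sublingual as deposited (40.6% of all genes), while after scaling 2 were higher (8.23% of all genes) and 0 lower. In parotid minus liver 4 were lower as deposited, while after scaling 8 in parotid, 9 in submandibular, 8 in sublingual gland and 3 in pancreas were higher than in liver, and 0 lower. Of 40 ribosome biogenesis genes, such as FBL and NOP56, 30 in parotid, 29 in submandibular, 3 in sublingual gland and 10 in pancreas were lower than in liver as deposited, with 0 higher. After scaling, 5, 3, 3 and 2 were higher and 10, 17, 7 and 9 lower. Of 12 genes of the mTOR and LARP1 pathway, 1 was higher and 6 lower in parotid minus liver as deposited, a share of lower genes near that of all genes, and 3 were higher and 0 lower after scaling.

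The 78 mitochondrial ribosomal protein genes, which serve the separate ribosomes inside mitochondria, are given beside the cytoplasmic ones for the comparisons with liver. As deposited 59 were lower in parotid, 57 in submandibular, 8 in sublingual gland and 32 in pancreas than in liver, with 0 higher. After scaling 22, 28, 15 and 25 were lower and 10, 8, 8 and 2 higher, against 0, 0, 0 and 1 lower and 29, 40, 66 and 39 higher among the 82 cytoplasmic members. Over all genes 53.4, 45.1, 18.7 and 23.6% were lower as deposited. After scaling 22.6, 24.6, 22.5 and 20.1% were lower and 21.2, 22.2, 21.9 and 16.6% higher. The scaled counts of lower mitochondrial genes in parotid and sublingual gland lie near these shares and are not read as particular to these genes. The ratio of the summed TPM of cytoplasmic to mitochondrial ribosomal protein genes, which does not depend on the total, was 11.5 ± 0.831 in liver (10.2 to 12.7), 23.1 ± 1.94 in pancreas, 22.4 ± 5.51 in sublingual, 20.5 ± 2.27 in submandibular and 17.5 ± 5.19 in parotid gland (SD, n = 6). Liver lay below every other library except the parotid of animal 6, at 9.33, the library with the highest sum of muscle markers. Mitochondrially encoded transcripts were also highest in liver on average, at 17.9% of all TPM against 4.72 to 10.5% in the other tissues.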

How the data were processed

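The authors deposited TPM values for 21292 gene symbols in 30 libraries (6 animals, 5 tissues). Per the labels, RNA came from 3 sections of 30 µm and reads were 2 × 150 bases, and the submitters' processing notes name FastQC, MultiQC, cutadapt, HISAT2, kallisto, SAMtools, featureCounts and DESeq2 without their roles. The transcriptome and genome build are not given in the sources used here, so no coordinates or sequences are printed. Columns share a fixed sum, so depth is unknown. All 30 sample columns were used and 0 were set aside.

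Tests used limma 3.58.1 in R 4.3.3 with a mean-variance trend on log2(TPM + 1), which understates changes of low genes, for the 13550 genes reaching 1 TPM in 6 or more libraries. Tissue and animal were terms, p-values were two-sided, and adjustment ran over all genes tested. Animal is a block because the labels number the same animals in every tissue. Deviations from tissue means correlated at 0.16 on average within an animal (60 pairs of libraries) and −0.02 between animals. The highest correlation between 2 libraries was 0.979, and 0 pairs were identical. The fit was tested on simulated data. Trimmed-mean factors were unweighted and trimmed 30% of log ratios and 5% of mean levels at each end.

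The members, lists and tests were chosen with earlier results of these data known. Named members are the 3 largest called rises and falls per tissue pair as deposited, the 5 highest and 5 lowest, paralogues with their core genes, RPLP0 to RPLP2, RPL5, RPL11, RPSA and RPS27A, and the 5 widest and 5 narrowest on the family-relative scale. The test over animals was added after the data were seen. RefSeq's gene table (T2T-MMU8v2.0) held 81 of the 82 members, all but RPL21. Some members and 1 list are not reported here.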

Additional observations from a re-analysis of the deposited data

Results flagged for a closer look

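In 65 sets of 6 libraries (the summed share and the named members on the family-relative scale, per tissue), 8 held a library far from the other 5. At 1 in 20 the number would be about 3.25, but the 2 numbers cannot be compared. The sets share animals and libraries, and RPL14 was named because it differed between animals in these same values. The summed share was 12.7% in the submandibular gland of animal 4, with the next value at 3.41%, and 12.8% in the pancreas of animal 4, with the next at 6.19%. Those libraries have low marker sums for their labelled tissue and high sums of fat and blood markers. In the same submandibular library RPL10L stood at −8.43 relative to the family median (log2), the next value being −7.13, and RPS27L at −1.73, the next being −0.78. RPL10L was at most 6.46 TPM in any library, so its relative value may follow the family median. RPL14 in animal 1 stood at −5.28 in parotid (next −1.53), −5.45 in submandibular gland (next −1.84), −6.57 in sublingual gland (next −2.29) and −5.30 in pancreas (next −1.99). None of 20 comparisons of the sexes in the summed shares was opposite in every sample.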

How the results depend on the processing

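Members called per tissue pair changed with the fit. With TPM as deposited they were 5 in pancreas minus liver, 43 in parotid minus liver, 36 in parotid minus pancreas, 77 in parotid minus sublingual, 20 in sublingual minus liver, 3 in sublingual minus pancreas, 22 in submandibular minus liver, 6 in submandibular minus pancreas and 62 in submandibular minus sublingual. After trimmed-mean scaling, which moved the values of all genes, the sign of the calls turned in parotid minus liver (29, all higher), submandibular minus liver (40, all higher) and submandibular minus pancreas (1, higher). The counts moved to 40 in pancreas minus liver, 3 in parotid minus pancreas, 14 in parotid minus sublingual, 66 in sublingual minus liver and 3 in submandibular minus sublingual, and 57 members differed among the tissues against 73.

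Without the animal as a block (the replicate block), the calls fell to 3 in pancreas minus liver, 11 in parotid minus pancreas, 13 in sublingual minus liver, 1 in sublingual minus pancreas, 10 in submandibular minus liver and 1 in submandibular minus pancreas. The other 6 counts stayed within 1.5 times. Fitted to only the libraries of the tissues compared, they were 1 in pancreas minus liver, 17 in parotid minus pancreas, 0 in sublingual minus pancreas, 2 in submandibular minus liver, 10 in submandibular minus pancreas and 4 in submandibular minus sublingual, where fewer samples enter. Without the 3 libraries that stand apart, pancreas minus liver gave 14 (9 of them lower), sublingual minus liver 53, sublingual minus pancreas 49, submandibular minus liver 54 and submandibular minus pancreas 44. In that fit 90.1% of all genes differed among the tissues, against 66.8% in the main fit. A pseudocount of 0.1 and no filter left the counts from TPM as deposited, with all libraries, within 1.5 times. Relative to the family median, a pseudocount of 0.1 took parotid minus sublingual from 24 to 12 and submandibular minus sublingual from 15 to 6, and no filter took submandibular minus pancreas from 6 to 3 and sublingual minus pancreas from 4 to 2. On that scale, with only the tissues compared, the counts were 15 in parotid, 15 in submandibular, 3 in sublingual and 10 in pancreas minus liver, 3 in both parotid and submandibular minus sublingual, and 3, 4 and 0 in parotid, submandibular and sublingual minus pancreas.

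Leaving out each animal in turn gave 1 to 8 calls in pancreas minus liver, 22 to 61 in parotid minus liver, 4 to 46 in parotid minus pancreas, 60 to 78 in parotid minus sublingual, 3 to 29 in sublingual minus liver, 0 to 45 in sublingual minus pancreas, 6 to 59 in submandibular minus liver, 0 to 37 in submandibular minus pancreas and 22 to 79 in submandibular minus sublingual. The highest count came without animal 4 in each of these except parotid minus pancreas, where it came without animal 6. Members that differed among tissues numbered from 49 (without animal 1, where 48.2% of all genes did) to 80 (without animal 4, 85.8% of all genes). Relative to the family median they numbered 19 to 37, where all 6 animals gave 42. Parotid minus submandibular stayed at 0 in every fit listed.

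The summed share was 13.8% (parotid), 15.3% (submandibular), 13.3% (sublingual), 14.5% (pancreas) and 7.54% (liver) outside the 100 most abundant genes, and 5.96% in liver outside mitochondrially encoded genes. Leave-one-out means ran from 2.62 to 3.07, 2.71 to 4.84, 7.63 to 8.71, 4.47 to 6.25 and 4.73 to 5.00% in that order. Sequencing depth is unknown, which leaves the counting error of low members such as RPL39L and RPL10L unknown.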

Other observations

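In the 6 livers several members set animals 1, 3 and 4 apart from animals 2, 5 and 6, in either direction. RPS18 was at 1034, 595, 1216, 985, 664 and 580 TPM in animals 1 to 6, highest in animals 1, 3 and 4, where RPL7 and RPL10A were lowest. RPL41 was at 1767, 3770, 2652, 1956, 4235 and 3578 TPM, lowest in the same animals. The 40S share of the family sum was 45.0, 40.3, 44.2, 45.0, 41.3 and 39.7%, again highest in animals 1, 3 and 4. Mitochondrially encoded genes took 24.7, 10.5, 19.6, 21.7, 17.0 and 13.8% of those libraries, and their part in this was not tested. These members and this split of the animals were chosen after the values were seen. The difference between these sets of animals was not tested.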
